A study of Mus musculus with 12 samples.

Results

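The genes Kmt2d, Kmt2c, Ezh2, Dot1l, Ep300 and Crebbp, which encode writers of histone marks, were examined in mouse melanoma cells with KMT2D mutant or intact. Every peak within 10 kb of the spans of these 6 genes on mm9 was taken, which gave 122 of the 173601 peaks in 10 deposited peak lists. Of these, 54 were in the mutant lists and 68 in the WT lists. All 6 genes had peaks in both genotypes. The numbers over all 5 marks were 13 in mutant and 14 in WT at Kmt2d, 8 and 9 at Kmt2c, 3 and 8 at Ezh2, 10 and 17 at Dot1l, 3 and 4 at Ep300, and 17 and 16 at Crebbp.

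Mutant cells, also called KO in the labels, came from iBIP mice that were KMT2DL/L, with both Kmt2d copies conditional, and WT cells from iBIP mice that were KMT2D+/+. Both carried all other iBIP alleles on a mixed FVB and B6 background: Tyr-CreERT2, a tamoxifen-activated Cre that the tyrosinase promoter drives in melanocytes; Rosa26-rtta with TetO-BRAFV600E, which turn on oncogenic BRAF under doxycycline; and the conditional tumour-suppressor alleles PTENL/L and INK/ARFL/L. Tumours were raised on the ears with doxycycline and 1 uM 4-hydroxytamoxifen, and cells isolated from them were profiled by chromatin immunoprecipitation and sequencing (ChIP-seq), with 1 library per genotype for each of H3K4me1, H3K27ac, H3K4me3, H3K79me2 and H3K27me3. The labels do not say how many tumours, animals or clones the cells stand for. Since each genotype and mark has 1 library, the differences given here could not be set against a spread between replicates, and none was tested. Read depth is unknown, since the lists hold no read counts. Where a list has a gap, the signal was under the authors' threshold, which does not show that the mark was absent.

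KMT2D and its close relative KMT2C are catalytic subunits of COMPASS-like complexes and place H3K4me1, chiefly at enhancers. The acetyltransferases p300 (Ep300) and CBP (Crebbp) place H3K27ac at active enhancers and promoters. DOT1L methylates H3K79 in the early part of transcribed genes, and EZH2 is the catalytic subunit of Polycomb repressive complex 2, which places the silencing mark H3K27me3. H3K4me3 marks the promoters of genes that are active or poised.

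The promoter sequences of 4 members are shown. H3K4me3 and H3K27ac were at every start, while H3K4me1 was at the start of Dot1l in both genotypes and of Kmt2d in WT, and at neither Kmt2c nor Ezh2. The starts of Ep300 and Crebbp, whose sequences are not shown, had no H3K4me1 either. The sequences are the 250 bases before the start in the RefSeq table of build GRCm38.p6, written 5′ to 3′. They were not placed on mm9. Capitals mark the GC box core (GGGCGG), the CCAAT box core (CCAAT) and an ETS-type core (CCGGAAG) on either strand. Where matches overlap, the capitals run together. The positions on GRCm38.p6 are chr15:98871206-98871455 (minus strand) for Kmt2d, chr5:25498784-25499033 (minus strand) for Kmt2c, chr6:47595031-47595280 (minus strand) for Ezh2 and chr10:80754953-80755202 (plus strand) for Dot1l.
Kmt2d: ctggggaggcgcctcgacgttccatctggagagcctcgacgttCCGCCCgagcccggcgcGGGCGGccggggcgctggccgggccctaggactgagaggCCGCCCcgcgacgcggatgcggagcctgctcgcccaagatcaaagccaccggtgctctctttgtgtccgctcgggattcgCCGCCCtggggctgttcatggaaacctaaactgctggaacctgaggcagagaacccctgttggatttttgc
Kmt2c: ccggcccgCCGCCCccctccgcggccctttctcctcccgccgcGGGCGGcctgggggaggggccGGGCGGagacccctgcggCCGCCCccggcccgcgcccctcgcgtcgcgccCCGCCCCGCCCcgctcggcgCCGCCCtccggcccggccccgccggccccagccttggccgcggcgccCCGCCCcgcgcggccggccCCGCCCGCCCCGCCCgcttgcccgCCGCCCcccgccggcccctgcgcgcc
Ezh2: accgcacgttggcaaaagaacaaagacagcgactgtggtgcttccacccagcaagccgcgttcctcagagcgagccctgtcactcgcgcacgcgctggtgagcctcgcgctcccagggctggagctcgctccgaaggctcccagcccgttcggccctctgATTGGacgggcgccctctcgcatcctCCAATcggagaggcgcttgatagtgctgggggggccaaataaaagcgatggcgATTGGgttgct
Dot1l: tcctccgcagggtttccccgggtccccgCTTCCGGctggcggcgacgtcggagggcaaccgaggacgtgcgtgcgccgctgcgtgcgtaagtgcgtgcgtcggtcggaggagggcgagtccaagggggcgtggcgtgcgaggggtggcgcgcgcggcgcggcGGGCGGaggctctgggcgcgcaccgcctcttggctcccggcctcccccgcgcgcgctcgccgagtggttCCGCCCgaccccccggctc
All 6 members were found in that table, and their windows were rich in CpG, with 23 to 48 CpG dinucleotides against a median of 6 over 32851 windows of the same length. Kmt2c had the highest G+C content of the members, 91.6%, and Ezh2 the lowest, 63.6%; the median window had 52.4%. The GC box core was in 5 of the 6 members and in 32.7% of all windows. Kmt2c held 12 such matches and Ezh2 none. Ezh2 held 3 CCAAT matches and was the 1 member of 6 with any, against 33.8% of all windows. The ETS-type core was in Dot1l alone of the members and in 6.91% of all windows. Neither CACGTG nor TCATGTG, E-box forms that basic helix-loop-helix factors bind, was in any of the 6 windows, against 6.02% and 3.25% of all windows. A match is a stretch of letters and shows no binding.

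**Figure D1:**
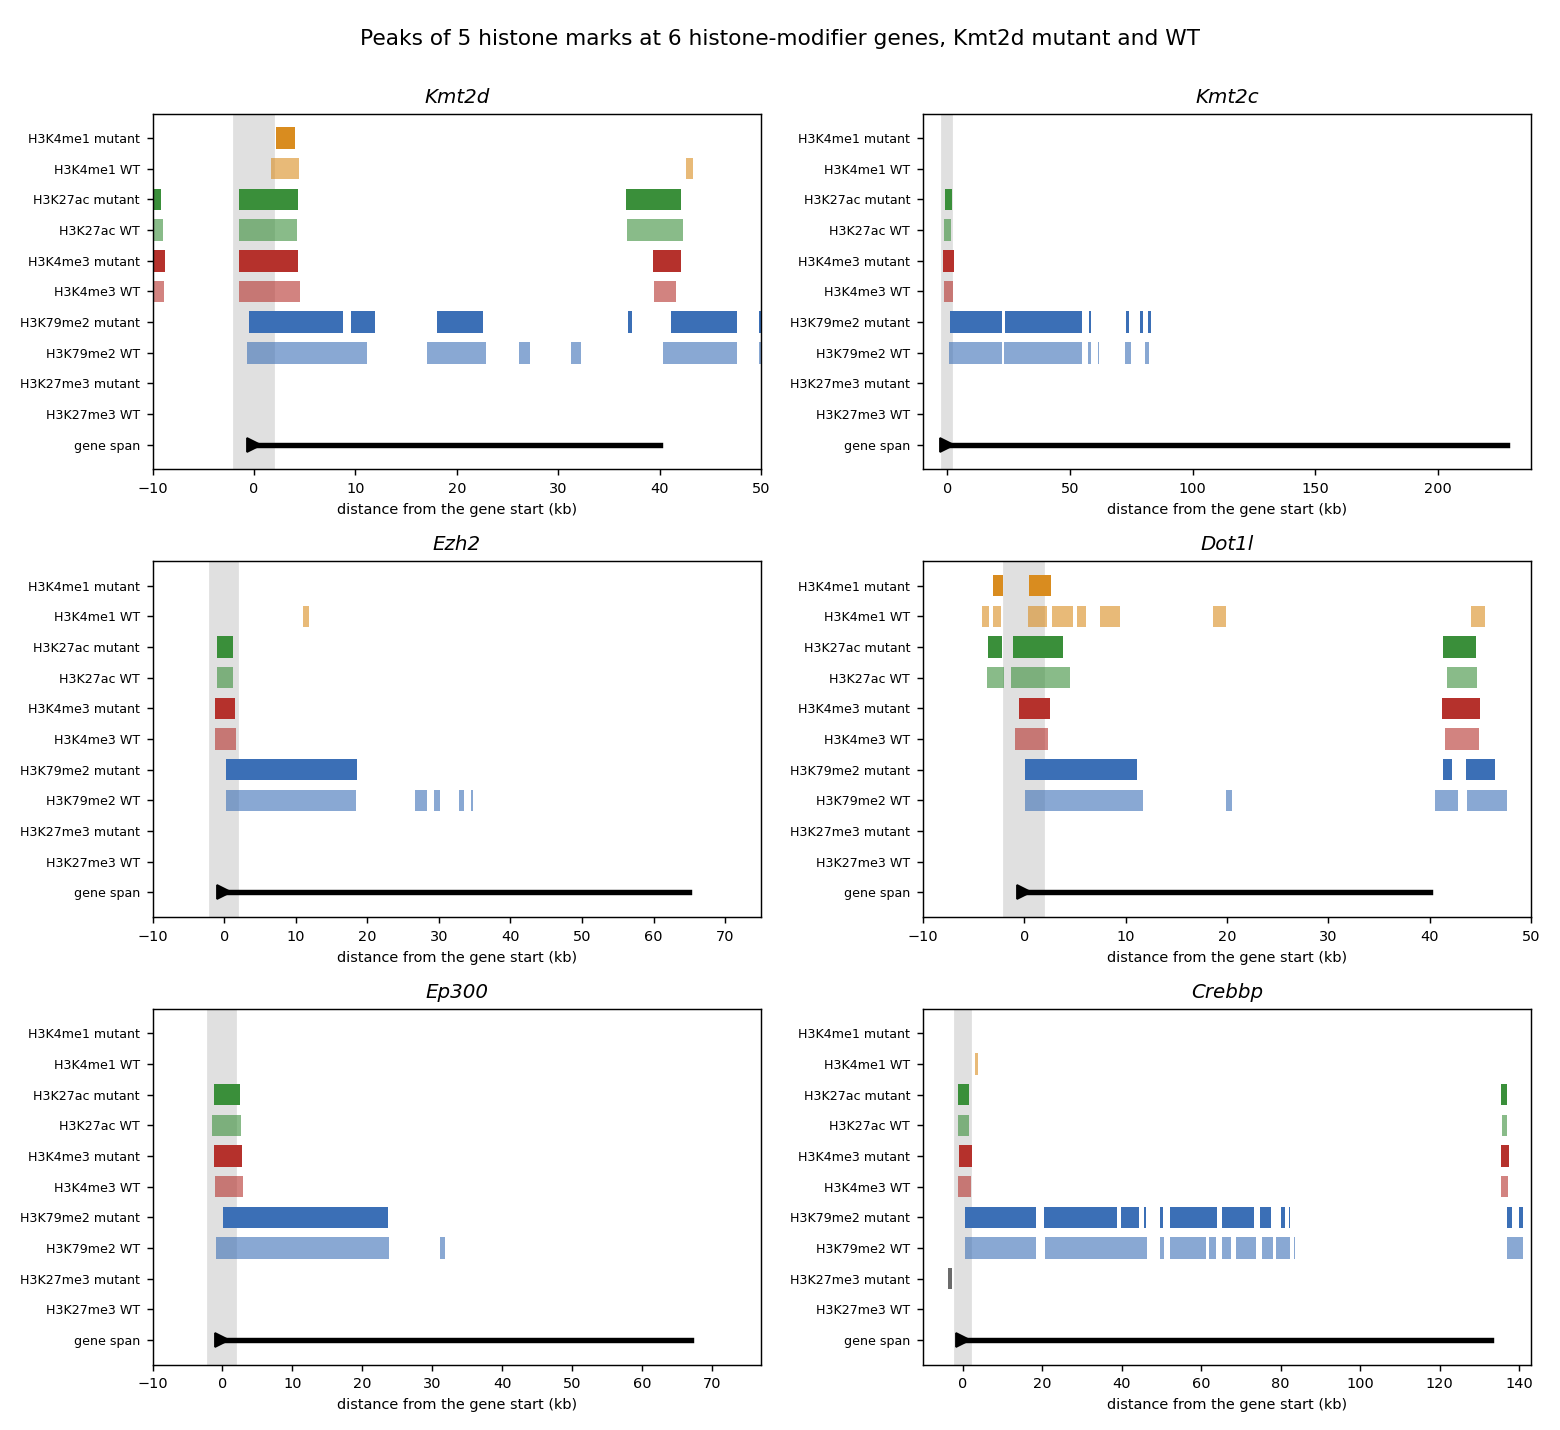
Peaks of the 5 marks at the 6 genes, drawn against the distance from the gene start in the direction of transcription (kb); each row is 1 list, the mutant row above the WT row of the same mark, and the grey band is the start window of 2000 bp either side. All 6 starts have H3K27ac, H3K4me3 and H3K79me2 in both genotypes, H3K4me1 is frequent only at Dot1l in WT, and the 1 H3K27me3 peak lies upstream of Crebbp in the mutant.

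The first comparison was of the starts, taken as 2000 bp either side of the 5′ end of each span. Spans were given to 1 kb, so distances of about 1 kb or less from a start are not exact. Covered bases in the start windows share that limit. H3K4me3, H3K27ac and H3K79me2 peaks were at all 6 starts in both genotypes, so these promoters carried the marks of active genes in mutant and WT cells alike. No start had H3K27me3 in either genotype. Of the 14723 windows of the same width around all WT H3K4me3 peaks, 70.2% held H3K27ac in mutant and 77.5% in WT, 55.9% held H3K79me2 in mutant and 62.2% in WT, and 17.8% held H3K27me3 in mutant and 17.9% in WT. Where such a window held H3K27me3, it was lower in the mutant by 1.5 times or more in 19.3% and higher in 27.4%. Summed over the 6 starts, H3K4me3 covered 18381 bp in mutant and 18813 bp in WT cells (ratio 0.977), and H3K27ac 17783 bp in mutant and 18116 bp in WT cells (ratio 0.982). H3K79me2 covered 10425 bp in mutant and 11951 bp in WT cells (ratio 0.872). A gene was counted as differing where its covered bases differed 1.5 times or more. By that rule, 0 of 6 starts differed in H3K4me3 or H3K27ac. In the windows around WT H3K4me3 peaks that held the mark, H3K4me3 was lower in the mutant by that much in 12.3% and higher in 4.12%, and H3K27ac was lower in 15.3% and higher in 6.69%. H3K79me2 was lower by the rule at 2 of 6 starts, Kmt2c and Ep300, against 29.8% of such windows, and higher at 0 of 6, against 7.13%. The count of 2 in 6 is near that background. Both calls ended with a start window of 5000 bp, where the ratio was 0.890 at Kmt2c and 0.832 at Ep300. The windows around WT H3K4me3 peaks were placed by WT peaks, which can favour lower values in the mutant.

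At the start of Kmt2d, the gene that is conditional in the mutant, the H3K4me3 peak was 5803 bp wide in mutant cells and 6055 bp in WT cells. It ran from 98697644 to 98703446 on chromosome 15 in the mutant and from 98697424 to 98703478 in WT. These were among the widest of their lists: 1.87% of mutant and 1.08% of WT H3K4me3 peaks were as wide. The H3K27ac peak there was 5806 bp wide in mutant and 5713 bp in WT cells, and 5699 bp were common to both. The authors' score of that acetylation peak was 1196 in the mutant, matched or passed by 9.02% of the mutant list, and 2831 in WT, matched or passed by 1.77% of the WT list. Such ranks describe each list and do not measure a change between lists of unknown depth. Peak lists do not show whether the conditional part of Kmt2d was removed, so the mutant label was not checked here.

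Kmt2c had a single H3K4me3 peak and a single H3K27ac peak in each genotype, both at its start. The H3K4me3 peak was 4324 bp wide in mutant and 3688 bp in WT cells, on chromosome 5 from 25002347 to 25006670 in the mutant and from 25002717 to 25006404 in WT. The H3K27ac peak was 3091 bp wide in mutant and 2997 bp in WT cells. Its score was 356.3 in the mutant, matched or passed by 41.3% of the mutant list, and 1602 in WT, matched or passed by 6.82% of the WT list. The extent of acetylation at Kmt2c was thus close between the genotypes, while its score was high for its list in WT and middling in the mutant. As said for Kmt2d, such ranks do not measure a change between lists of unknown depth. The WT acetylation peak also ranked higher than the mutant one at the starts of Kmt2d, Dot1l and Ezh2, but not at Ep300 or Crebbp. H3K79me2 covered 913 bp of the start window in mutant and 1395 bp in WT cells, its first block beginning 1088 bp after the start in mutant and 606 bp after it in WT.

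The acetyltransferase genes had H3K4me3 and H3K27ac start peaks of like extent in both genotypes. At Ep300, H3K4me3 was 4055 bp wide in mutant and 4014 bp in WT cells, on chromosome 15 from 81414805 to 81418859 in the mutant and from 81414865 to 81418878 in WT. H3K27ac at Ep300 was 3715 bp wide in mutant and 4215 bp in WT, and its scores of 2671 in mutant and 2618 in WT were matched or passed by 1.55% and 2.25% of their lists. H3K79me2 at Ep300 covered 1988 bp of the start window in mutant and 2998 bp in WT. Its block began at 13 bp from the start in mutant and at -997 bp in WT, both within the 1 kb to which the start was given. At Crebbp, H3K4me3 was 3277 bp wide in mutant and 3127 bp in WT cells, on chromosome 16 from 4211552 to 4214828 in the mutant and from 4211900 to 4215026 in WT. H3K27ac at Crebbp was 2603 bp wide in mutant and 2629 bp in WT. Its scores of 783.6 in mutant and 851.9 in WT were matched or passed by 17.2% and 18.0% of their lists.

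The start of Dot1l had H3K4me3 over 3088 bp in mutant cells, from 80217486 to 80220573 on chromosome 10, and over 3197 bp in WT cells, from 80217138 to 80220334. Its H3K27ac peak was 4958 bp wide in mutant and 5852 bp in WT cells, the mutant peak lying wholly within the WT one. The scores of 880.2 in mutant and 1974 in WT were matched or passed by 14.5% and 4.44% of their lists. Ezh2 had the narrowest H3K4me3 and H3K27ac start peaks of the 6 genes in both genotypes. Its H3K4me3 peak was 2723 bp wide in mutant cells, from 47543503 to 47546225 on chromosome 6, and 2903 bp in WT cells, from 47543377 to 47546279. H3K27ac at Ezh2 was 2248 bp wide in mutant and 2149 bp in WT cells. Its scores of 523.7 in mutant and 739.1 in WT were matched or passed by 28.0% and 21.4% of their lists. In order of H3K4me3 width in the mutant, the genes ran Kmt2d, Kmt2c, Ep300, Crebbp, Dot1l and Ezh2; in WT, Ep300 stood before Kmt2c and Dot1l before Crebbp. No replicate spread exists to say whether neighbours in that order differ.

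**Figure D2:**
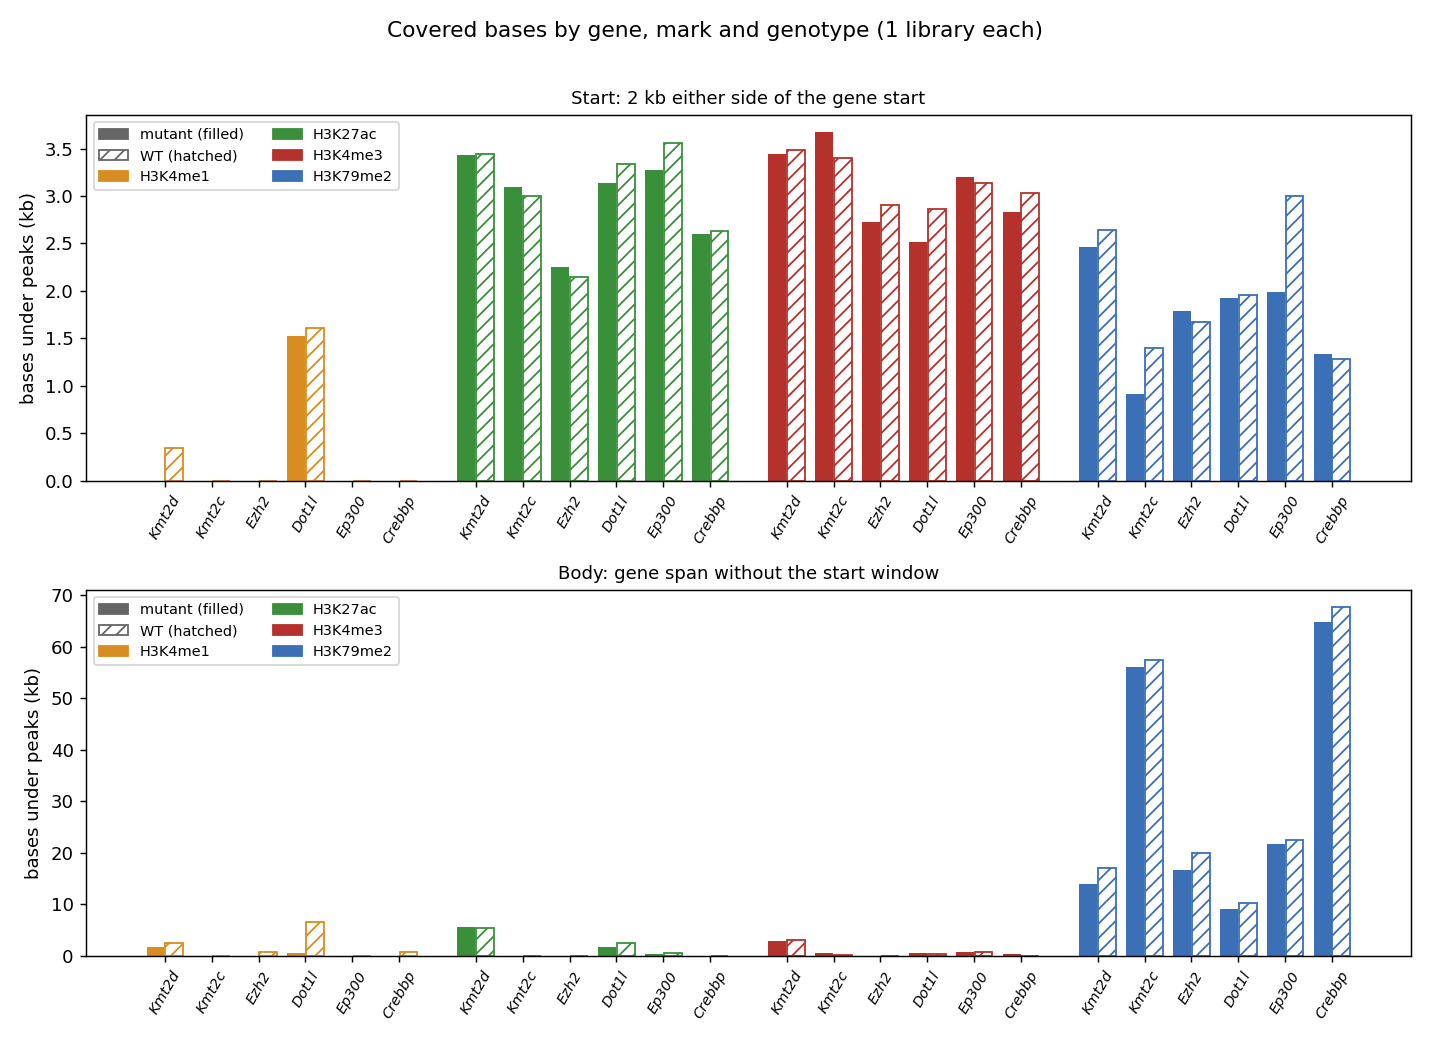
Bases under peaks (kb) for each gene and mark at the start (upper panel) and over the rest of the span (lower panel), filled bars for mutant and hatched bars for WT, 1 library each; H3K27me3 is left out because it had no base in either region. At the starts H3K27ac and H3K4me3 bars are close between genotypes, and over the bodies the H3K4me1 bars at Dot1l stand apart, with 678 bp in mutant and 6576 bp in WT.

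H3K4me1, the mark KMT2D places, had fewer peaks in the mutant at these genes. The 6 loci held 3 H3K4me1 peaks in mutant and 12 in WT cells. Kmt2d had 1 in mutant and 2 in WT, Dot1l 2 in mutant and 8 in WT, Ezh2 and Crebbp 0 in mutant and 1 each in WT, and Kmt2c and Ep300 none in either. All 3 mutant peaks overlapped a WT peak, against 27.9% of the mutant list without one, and of the 12 WT peaks 9 had no mutant H3K4me1 peak, against 77.0% of the whole WT list. The share of WT peaks with a mutant peak, 25.0% (exact 95% interval 5.49 to 57.2, for counting error only), was near the 23.0% of the whole WT list. Over the whole lists the length under H3K4me1 peaks was 7.34 Mb in mutant and 24.5 Mb in WT (ratio 0.300). Over the 6 bodies, H3K4me1 covered 2505 bp in mutant and 10616 bp in WT (ratio 0.236), and at the 6 starts 1526 bp in mutant and 1957 bp in WT (ratio 0.780). The mutant list held 5358 H3K4me1 peaks and the WT list 15981; the part of this difference in list length was not tested. With both lists limited to the same number of strongest peaks, 2 of 5 WT peaks at these loci had a mutant peak, against 43.0% of that list. With a minimum score of 200 in both lists, no mutant H3K4me1 peak was left at these loci and 0 of 5 WT peaks had one, against 14.5% of that WT list.

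Dot1l, the gene of the H3K79 methyltransferase, carried most of the H3K4me1. In the mutant, H3K4me1 peaks lay at the start, from 80218475 to 80220678 (2204 bp, score 133.3), and upstream, from 80214952 to 80215869 (918 bp, score 129.9). In WT, 8 peaks ran from -4117 bp, upstream of its start, to beyond its 3′ end. The 3 widest were on chromosome 10 from 80220699 to 80222800 (2102 bp, score 232.0), from 80225449 to 80227430 (1982 bp, score 219.8) and from 80218394 to 80220290 (1897 bp, score 362.0). The other WT H3K4me1 peaks at Dot1l were 676 to 1350 bp wide. The mutant start peak overlapped the WT one over 1816 bp. Over the body of Dot1l H3K4me1 covered 678 bp in mutant and 6576 bp in WT cells, and at its start 1526 bp in mutant and 1607 bp in WT cells. The 678 bp were the inner edge of the start peak. These values turned on the window: with 5000 bp either side the start had 3122 bp in mutant and 5445 bp in WT (ratio 0.573) and the body 0 bp in mutant and 4184 bp in WT. The H3K4me1 peaks inside the gene, between 2699 and 19883 bp from its start, were in the WT list only, while the one at the start was in both. The mutant start peak ended 2678 bp from the start, right beside the first of the inner WT peaks. Over the 6 loci, 5 of 12 WT H3K4me1 peaks had a mutant peak within 1000 bp. No such share over the whole list was computed. The H3K27ac peak that overlapped the first of these inner H3K4me1 sites was in both genotypes, its far end 3818 bp from the start in mutant and 4518 bp in WT. Further in, none of the WT H3K4me1 peaks in the gene overlapped H3K27ac in either genotype.

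Kmt2d itself had an H3K4me1 peak in both genotypes on the downstream side of its promoter. It spanned 1827 bp in mutant cells, from 98697983 to 98699809 on chromosome 15 (score 156.9), and 2794 bp in WT cells, from 98697556 to 98700349 (score 325.0). The mutant peak lay wholly within the WT peak, and both overlapped H3K4me3, H3K27ac and H3K79me2. In the start window H3K4me1 covered 0 bp in mutant and 350 bp in WT; of the windows around WT H3K4me3 peaks that held H3K4me1, 70.6% were lower in the mutant by 1.5 times or more and 11.4% higher. The mutant peak began 2191 bp from the start, just past the window, and with 5000 bp either side the start had 1827 bp in mutant and 2794 bp in WT (ratio 0.654). A second WT H3K4me1 peak, from 98658712 to 98659406 (695 bp, score 92.13), lay past the 3′ end of the gene, with no mutant counterpart. The WT H3K4me1 peak of Ezh2 was in the gene, on chromosome 6 from 47533165 to 47533938 (774 bp, score 113.7), and that of Crebbp was 3052 to 3873 bp from the start, on chromosome 16 from 4210127 to 4210948 (822 bp, score 109.4). Neither had a mutant peak, and 77.5% and 80.8% of the WT H3K4me1 list scored as high or higher, so both were weak peaks of their list.

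Kmt2c and Ep300 had no H3K4me1 peak in either genotype over their whole loci. Over the lists, in windows much shorter than those loci, an H3K4me1 peak lay within 10000 bp of the centre of 19.8% of mutant and 40.2% of WT H3K4me3 peaks, and within 2000 bp of 12.2% of mutant and 28.0% of WT ones. Of the 12 WT H3K4me1 peaks at the 6 loci, 10 overlapped WT H3K79me2 and 6 overlapped WT H3K27ac, against 47.3% and 57.2% of the whole WT list; all 6 loci are genes with H3K79me2. Of the 9 WT peaks without mutant H3K4me1, 7 overlapped mutant H3K79me2 and 3 mutant H3K27ac, against 37.3% and 50.1% of such peaks in the whole list. One site, in Dot1l from 80236588 to 80237883 on chromosome 10, had no mutant peak of any mark, which was so for 27.7% of such peaks in the whole list.

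**Figure D3:**
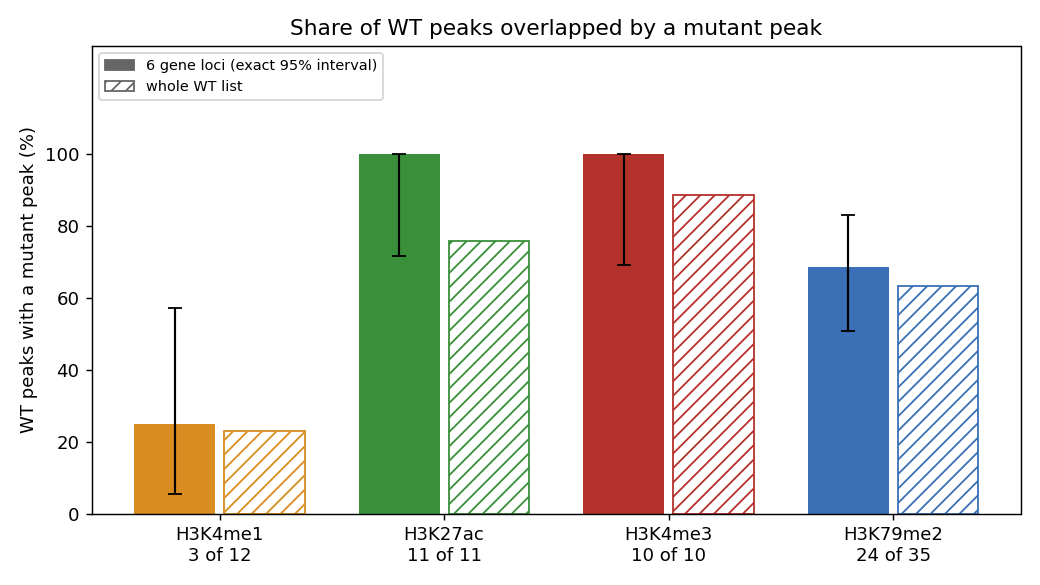
Share of WT peaks overlapped by a mutant peak of the same mark (%), filled bars for the 6 loci with exact 95% intervals for counting error and hatched bars for the whole WT list; the counts for the 6 loci stand under each mark, and H3K27me3 had no WT peak there. H3K4me1 has 3 of 12 shared and H3K79me2 24 of 35, each close to its whole list, and all H3K27ac and H3K4me3 peaks are shared.

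Acetylation and H3K4me3 peaks of the 6 loci were all shared, 11 of 11 for H3K27ac and 10 of 10 for H3K4me3 in either direction. Over the whole mutant lists, 18.4% of H3K27ac and 6.18% of H3K4me3 peaks had no WT peak, and over the WT lists 24.1% and 11.3% had no mutant peak. For WT peaks the exact 95% interval of the shared share was 71.5 to 100% for H3K27ac and 69.2 to 100% for H3K4me3, which include the whole-list shares of 75.9% and 88.7%. Inside the bodies, H3K27ac covered 7923 bp in mutant and 8644 bp in WT (ratio 0.917), and H3K4me3 5496 bp in mutant and 4676 bp in WT (ratio 1.18). Kmt2c (653 bp in mutant, 283 bp in WT), Dot1l (573 bp in mutant, 334 bp in WT) and Crebbp (448 bp in mutant, 100 bp in WT) had over 1.5 times more H3K4me3 in the body in the mutant. These bases were the inner edges of the start peaks, which ran past the 2000 bp window. With a window of 1000 bp none of the 3 genes differed by 1.5 times, at ratios of 1.29 for Kmt2c, 1.18 for Dot1l and 1.32 for Crebbp. No share over other gene bodies was computed, so nothing is read from that count. Separate peaks in a body were found at the 3′ end of Kmt2d alone, where H3K27ac was 5368 bp wide in mutant and 5508 bp in WT cells and began 36716 bp from the start in mutant and 36796 bp in WT.

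H3K79me2, the mark of early transcribed gene bodies, ran from each start into the gene in both genotypes. In the body, none of the 6 genes differed by 1.5 times. In the lists as deposited all 6 had fewer bases in mutant cells, but Ezh2 had a ratio of 1.01 with a minimum −log10 q of 5, and Kmt2c 1.01 with both lists at equal length. No share of other gene bodies with fewer bases was computed. The summed cover was 182263 bp in mutant and 194917 bp in WT (ratio 0.935), against a ratio of 0.824 over the whole lists. By gene the body cover was 14061 bp in mutant and 17107 bp in WT at Kmt2d, 56052 and 57423 bp at Kmt2c, 16618 and 20016 bp at Ezh2, 9084 and 10367 bp at Dot1l, 21734 and 22415 bp at Ep300, and 64714 and 67589 bp at Crebbp. At Kmt2d the ratio was 0.822, and 0.450 with a minimum −log10 q of 5. The lower ratio depended on blocks near that cut. In WT a block of 5852 bp had a −log10 q of 5 and was kept. In the mutant that block was 4568 bp wide with a −log10 q of 4.55 and was dropped. A mutant peak of 2325 bp at 4.67 was dropped too, while the WT first block that it overlapped was kept. Shorter peaks were dropped in both genotypes. Among all WT H3K79me2 peaks of at least 10000 bp, mutant cover was lower by 1.5 times or more in 8.97%, a measure in which the mutant cannot be higher. It scores single WT peaks and not gene bodies, so it is not a like background for the bodies of the 6 genes.

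The block that begins at the start had far ends within 1000 bp of each other in mutant and WT in 5 of the 6 genes. Its far end was 23734 bp from the start in mutant and 23765 bp in WT at Ep300, and 18492 bp in mutant and 18475 bp in WT at Crebbp. Kmt2c had it at 22151 bp in mutant and 22085 bp in WT, and Ezh2 at 18618 bp in mutant and 18483 bp in WT. At Dot1l it ended 11084 bp from the start in mutant and 11746 bp in WT. Kmt2d was the exception, with 8750 bp in mutant and 11138 bp in WT, a distance of 2388 bp. In the mutant a separate peak of 2325 bp followed, from 9609 to 11933 bp from the start, so it ended past the WT block. Between 10 and 20 kb from the start of Kmt2d, H3K79me2 covered 3875 bp in mutant and 4062 bp in WT. Of all ends of WT blocks of at least 10000 bp, 75.4% had a mutant peak end of the same side within 1000 bp. That share takes both ends of a block and the end of any mutant peak, so it is a looser measure than the 5 of 6. By it Kmt2d would count too, since the mutant peak ending at 11933 bp lies within 1000 bp of the WT end. Nothing is read from the 5 of 6.

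**Figure D4:**
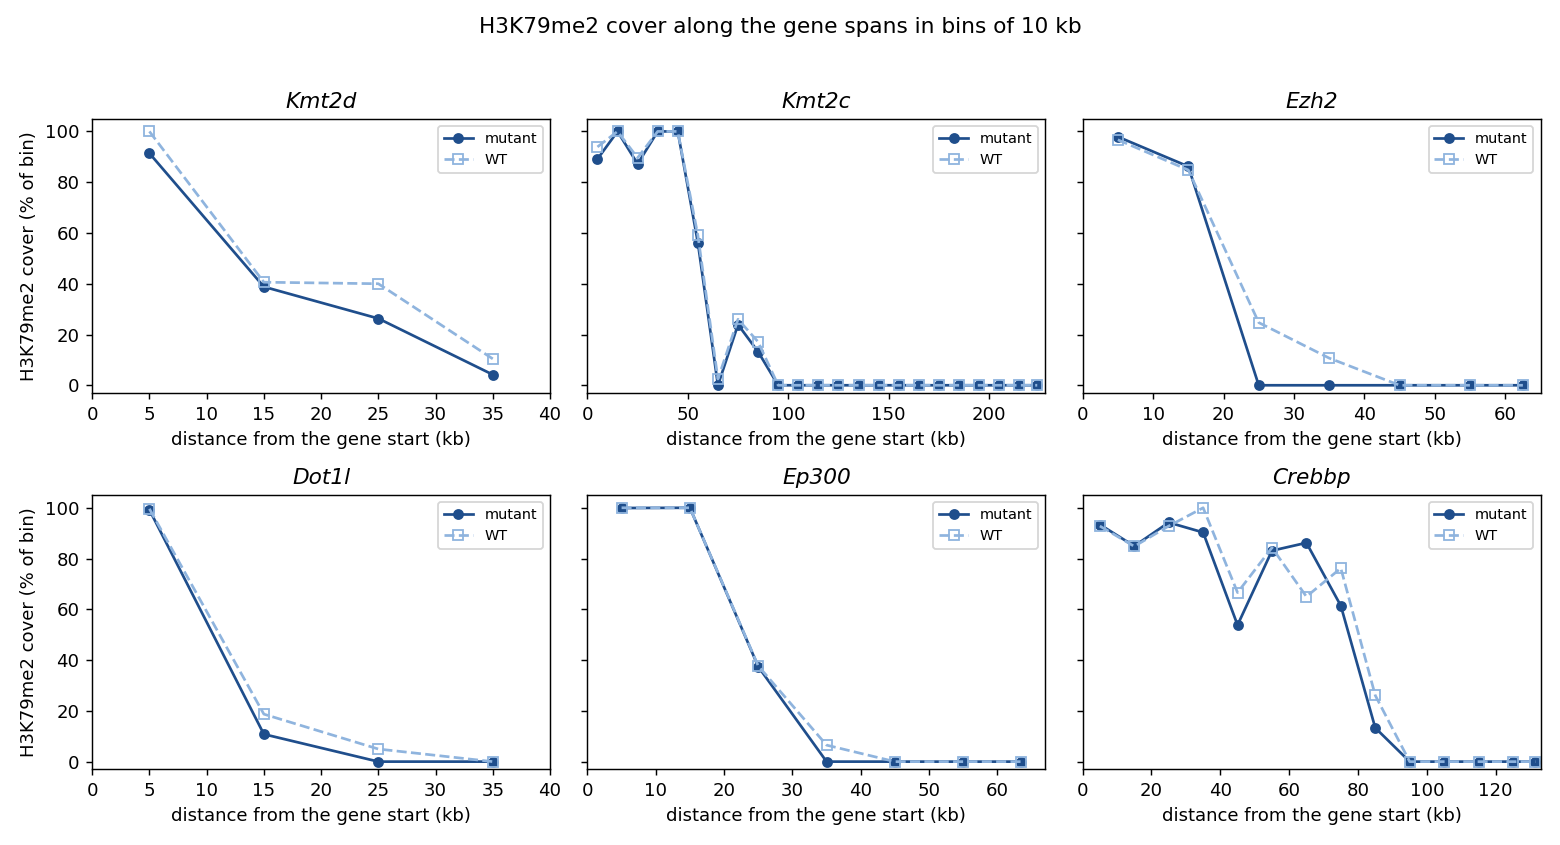
Share of each 10 kb bin of the gene spans under H3K79me2 peaks (%), against the distance of the bin's centre from the gene start (kb), filled circles for mutant and open squares for WT, 1 library each; the last bin of a span may be shorter. Cover is 89.1% or more in the first bin of every gene in both genotypes and falls to 0 before 100 kb at Kmt2c and Crebbp, and the lines part most at Ezh2 beyond 20 kb, where the mutant has none.

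H3K79me2 did not cover the genes to their ends. At Kmt2c, with a span of 228 kb, the last H3K79me2 base was 83.1 kb from the start in mutant and 82.2 kb in WT, and the longest block was 31434 bp in mutant and 31613 bp in WT. Crebbp, with a span of 133 kb, had its last H3K79me2 base at 82.4 kb in mutant and 83.6 kb in WT, and H3K79me2 covered 49.7% of the span in mutant and 51.8% in WT. At Crebbp, 3 mutant peaks of 671, 4738 and 18171 bp stood where WT had 1 block of 25544 bp, its longest, from 4167742 to 4193285 on chromosome 16. Further in, mutant peaks of 349 and 980 bp stood where WT had a peak of 3528 bp. Elsewhere in the gene the reverse was seen. A mutant peak of 8061 bp stood where WT had peaks of 5132 and 2302 bp. Another mutant peak, of 11690 bp, stood where WT had peaks of 1670 and 8991 bp. Each genotype had 10 peaks inside the span. At Ezh2, Dot1l and Ep300 the mutant cover reached less far, to 18.6 kb against 34.8 kb in WT at Ezh2, to 11.1 kb against 20.5 kb at Dot1l, and to 23.7 kb against 31.8 kb at Ep300. Kmt2d went the other way, to 37.3 kb in mutant and 32.3 kb in WT. These far ends rest on short peaks. The 4 WT peaks of Ezh2 beyond the first block were 337 to 1721 bp wide, and those of Dot1l and Ep300 were 621 and 650 bp. At Kmt2d the far end was a peak of 418 bp in mutant and of 1045 bp in WT. The mutant one had a −log10 q of 3.59, matched or passed by 97.7% of the mutant list. In all, 2 of 29 mutant H3K79me2 peaks at the 6 loci had no WT peak, against 15.3% of the mutant list, and 11 of 35 WT peaks had no mutant peak, against 36.8% of the WT list. The 11 WT peaks lay in gene bodies beyond the first block and were 207 to 1721 bp wide.

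The longest H3K79me2 peak of each locus was at the start in 4 of the 6 genes. It ran from 98693250 to 98702467 on chromosome 15 in mutant and from 98690862 to 98702644 in WT at Kmt2d, and from 47526382 to 47544789 on chromosome 6 in mutant and from 47526517 to 47544674 in WT at Ezh2. At Dot1l it ran from 80218076 to 80229084 on chromosome 10 in mutant and from 80218043 to 80229746 in WT, and at Ep300 from 81416013 to 81439734 on chromosome 15 in mutant and from 81415003 to 81439765 in WT. Kmt2c and Crebbp had their longest block further in, for Kmt2c from 24950139 to 24981572 on chromosome 5 in mutant and from 24950262 to 24981874 in WT, and for Crebbp from 4175246 to 4193416 on chromosome 16 in mutant. The authors' fold enrichment of the first block was 5.72 to 6.69 in the mutant list and 5.57 to 6.52 in the WT list over the 6 genes.

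H3K27me3, the mark that EZH2 places, was absent from the lists over all 6 spans in both genotypes. The 1 H3K27me3 peak of the 122 was in the mutant, upstream of Crebbp, at -3574 to -2533 bp from its start, on chromosome 16 from 4216533 to 4217574. It was 1042 bp wide, with a fold enrichment of 4.24 and a −log10 q of 3.64 in the authors' list, and 74.5% of the mutant H3K27me3 peaks had as high a value. No other mark had a peak there in either genotype. Over the mutant list, 49.9% of H3K27me3 peaks had no WT peak.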

How the data were processed

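The authors deposited 1 peak list per library, each called on a single library against the input of its genotype, per the file names. The 10 lists were used; the 2 input libraries were not analysed here. The submitters' processing notes name Bowtie, MACS, MACS2, deepTools and mm9, without a version or a role for any. The lists of H3K4me1, H3K27ac and H3K4me3 give, as deposited by the authors, a score per peak that reads as 10 times the −log10 p, no lower than 90. For H3K79me2 and H3K27me3 the lists hold broad peaks of MACS2, with the authors' fold enrichment (ratio), −log10 p and −log10 q, and a deposited score of 10 times the −log10 q. Depth is unknown. The series' 12 samples were grouped by their titles. Alternatives were other thresholds, list lengths, windows and overlaps. The series' design text speaks of 6 modifications; the 5 named in the report were analysed here.

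Gene spans on mm9 were given to 1 kb with the choice of genes; strand and promoter sequence came from RefSeq tables of GRCm38.p6, whose coordinates were not joined to mm9. Covered bases were counted at the start (2000 bp either side), over the rest of the span (the body) and over 10 kb flanks. Positions are counted from 1, and an overlap of 1 bp or more made a peak shared. A gene counted as differing at 1.5 times or more. Intervals are exact (Clopper-Pearson). The work was done in Python 3.11.15 with scipy 1.17.1 (intervals), numpy 2.4.6 and, for the plots, matplotlib 3.10.9. The count of covered bases was tested on simulated data, with an error in 0 of 20 windows. All 6 genes are named; peaks with coordinates are those at the start, the longest H3K79me2 peak of a locus, and H3K4me1 and H3K27me3 peaks (the 3 widest where a locus had more than 5). Members, lists and rules were chosen with earlier results of these data known. No gene positions on mm9 beyond the 6 spans were used, so other histone-modifier genes and melanocyte markers were not analysed here, and the labelled cell type was not checked.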

Additional observations from a re-analysis of the deposited data

How the results depend on the processing

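The alternatives were a minimum score of 100 with a minimum −log10 q of 3, a still stricter minimum of 200 with 5, both lists of a mark at equal length by strength, start windows of 1000 and 5000 bp either side, bodies with the 10 kb flanks, and, for shared peaks, cover of at least 50%, a distance of 1000 bp and loci with 5 kb either side. For H3K79me2 the minimum −log10 q of 3 removed no peak, since the lowest values were 3.23 in mutant and 3.33 in WT. Those values could only equal the reported ones, and they are part of the counts that follow. Of 64 values of 12 summed results, 60 stayed within 1.5 times of the reported ratio or within the interval of the reported share, and none changed direction past that fold. The 4 others were all of H3K4me1. With the still stricter threshold no mutant H3K4me1 peak was left at the 6 loci, so the mutant over WT ratio was 0 at the starts and 0 over the bodies, and 0% of the 5 WT peaks left had a mutant peak, against 14.5% of that WT list. Without a start window of 5000 bp the ratio over the bodies was 0, since both mutant H3K4me1 peaks in the spans lie within 5000 bp of a start. Among single genes, 11 of 177 values moved by over 1.5 times. Of these, H3K79me2 over the body of Kmt2d went to a ratio of 0.450 with the still stricter threshold, against 0.822. That threshold kept a WT peak with a −log10 q of 5 and dropped the mutant peak there, at 4.55. It also dropped a mutant peak of 2325 bp at 4.67 and kept the WT first block that this peak overlapped. H3K79me2 at the starts of Kmt2c and Ep300 was lower by 1.5 times with windows of 1000 bp (0 bp in mutant and 395 bp in WT at Kmt2c, 988 bp in mutant and 1998 bp in WT at Ep300) and not with 5000 bp (ratio 0.890 at Kmt2c, 0.832 at Ep300). With 1000 bp, none of the 3 genes kept 1.5 times more H3K4me3 over the body (Kmt2c 1.29, Dot1l 1.18, Crebbp 1.32). H3K4me1 at the start went to 0.654 at Kmt2d and 0.573 at Dot1l with 5000 bp. No ratio exists for H3K27me3, which had no base at a start or in a body, and none for its shared peaks, as WT had none. No paired analysis was possible because each genotype and mark had 1 library. Unknown depth limits every absence of a peak.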

Other observations

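Around 3 of the genes, the 10 kb flanks held H3K4me3 and H3K27ac peaks in both genotypes. Across the 3′ end of Kmt2d, H3K4me3 was 2696 bp wide in mutant and 2088 bp in WT cells; the next gene there in the RefSeq order is Prkag1, a regulatory subunit of AMP-activated kinase. Upstream of Kmt2d, on the side of Rhebl1, H3K4me3 was 1465 bp wide in mutant and 1389 bp in WT, with H3K27ac of 982 bp in mutant and 1014 bp in WT. Past the 3′ end of Dot1l, on the side of Plekhj1 and Sf3a2, H3K4me3 was 3738 bp wide in mutant and 3350 bp in WT. H3K27ac there was 3213 bp wide in mutant and 2899 bp in WT. In that flank a WT H3K4me1 peak of 1350 bp had no mutant peak, and H3K79me2 covered 3825 bp in mutant and 6145 bp in WT. Past the 3′ end of Crebbp, on the side of Trap1, H3K4me3 was 1849 bp wide in mutant and 1669 bp in WT, and H3K79me2 covered 2184 bp in mutant and 4097 bp in WT. The lists do not assign these peaks to a gene.

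Upstream of Dot1l, an H3K27ac peak of 1441 bp in mutant and 1669 bp in WT lay, in the mutant, at -3611 to -2171 bp from the start. It was overlapped by H3K4me1 of 918 bp in mutant and 1446 bp in WT cells (2 peaks), by no H3K4me3 in either, and with the Dot1l and Kmt2d start peaks was 1 of the 3 places among these loci where H3K4me1 was in both lists.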
